A study of Mus musculus with 12 samples.

Results

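Blood vessels of the mouse pancreatic islet were followed through 10 genes: Pecam1, Cdh5, Kdr, Flt1, Ptprb, Plvap, Esam, Eng, Egfl7 and Vegfa. The first 9 are expressed by vascular endothelial cells, and Vegfa encodes the growth factor that these cells receive. All non-control probes whose transcript accession belongs to one of these genes were taken, which gave 14 probes among 41174 on the array, and 10 genes among the 17016 that the array's accessions name. The 2 groups were islets of 6 NOD mice, the non-obese diabetic strain, and of 6 NOD.B10 mice, its healthy control strain, all female and 12 weeks old. NOD.B10 mice carry the NOD background with another MHC haplotype. In each sample, RNA came from sections of many islets cut out of frozen pancreas by laser, so it holds whatever cells the islet outline contained. It was amplified, labelled with Cy5 and hybridised with a Cy3-labelled universal mouse RNA that was common to all arrays, with no dye swap. In such bulk samples, fewer endothelial cells and less RNA per endothelial cell cannot be told apart.

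Islets are supplied by a dense network of fenestrated capillaries. Endocrine cells make VEGF-A, which binds the receptors encoded by Kdr and Flt1 on the endothelial cells and keeps the capillaries open and fenestrated. The cells are held together by VE-cadherin and PECAM-1 at their junctions, and leukocytes cross this lining when they enter an inflamed islet.

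NOD arrays had the brighter Cy5 channel. By the scanner software's mark for a signal well above background, 10.7 to 17.3% of Cy5 spots passed on the NOD arrays and 3.96 to 7.88% on the NOD.B10 arrays, while Cy3 passed on 46.7 to 54.4% over all 12 arrays. Both strains were present, with 2 mice of each, on slide 2 and on slide 3. Slide 1 held only NOD replicates 1 and 2, and slide 4, read on another day, held only NOD.B10 replicates 2 and 3. On every slide the NOD arrays lay at positions 1 and 2 and the NOD.B10 arrays at positions 3 and 4, so strain and position cannot be told apart.

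Of the 10 genes, 5 gave an islet signal and 5 did not. Kdr, Flt1, Ptprb, Plvap and Vegfa each had 1 probe that met the condition for a test, a Cy5 signal well above background on 4 or more of the 12 arrays. Pecam1, Cdh5, Esam, Eng and Egfl7 were well above background in Cy5 on no array of either strain. This also held for the second Flt1 probe and for 2 of the 3 Vegfa probes, which made 9 silent probes, with Cy5 signals between -6 and 9 scanner units after the local background was subtracted.

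The Cy3 channel shows which of the silent probes can hybridise. The second Cdh5 probe (A_52_P248604), for VE-cadherin, had a Cy3 signal of 271 to 555.5 units and passed on all 12 arrays, while its Cy5 signal lay between -4 and 9 units. Egfl7 (A_52_P15122), which encodes a protein secreted by endothelial cells, passed in Cy3 on all 12 arrays with 74.5 to 160 units, against -2 to 6.5 units in Cy5. Both probes thus read the reference RNA and left the islet RNA below detection in both strains. Esam (A_51_P448325), which encodes an endothelial junction molecule, passed in Cy3 on 10 arrays, and Eng (A_51_P268563), which encodes the TGF-beta co-receptor endoglin, on 2. Pecam1 (A_51_P400868), printed in 10 spots, passed in neither channel on any array, with at most 8.15 units in Cy3. The first Cdh5 probe (A_51_P309056) was likewise silent in both channels. For these last 2 probes the arrays do not show that the probe works, and no level can be set for any of the 5 silent genes.

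**Figure D1:**
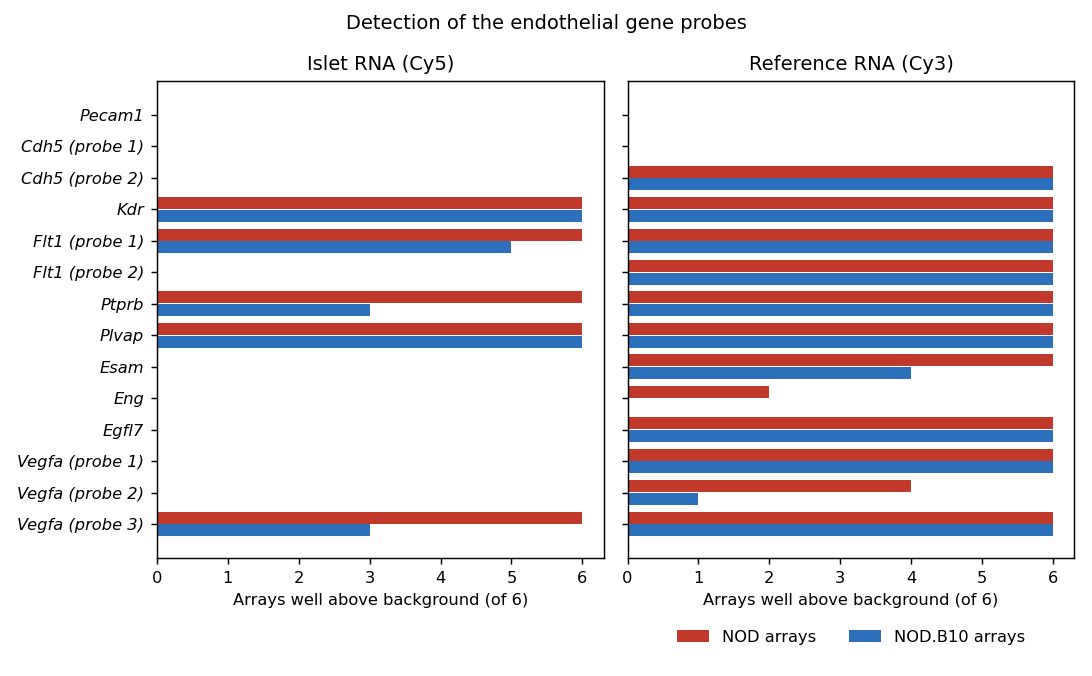
Number of arrays, of 6 per strain, on which each of the 14 probes was well above background in the islet channel (Cy5, left) and in the reference channel (Cy3, right), with NOD in red above NOD.B10 in blue. Of the probes, 5 have a bar in the islet channel, while Pecam1 and the first Cdh5 probe have none in either.

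The 5 genes that could be tested are given below as the log2 ratio of Cy5 to Cy3 after loess normalisation within each array, which sets a probe relative to probes of like brightness on its array. A change is NOD minus NOD.B10 with its standard error (SE), and adjusted p values are from limma's moderated test with Benjamini-Hochberg adjustment over 3920 genes. None of the 5 was called higher or lower at an adjusted p under 0.05, and none at an unadjusted p under 0.05, in limma or in an exact permutation test of the ratios. Over all genes 36.9% were called, 18.8% higher and 18.1% lower. The log2 ratios of the strains overlapped in all 5, while 16.9% of all genes had no overlap. The median change of all genes was -0.0056.

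Kdr encodes VEGFR2, the main signalling receptor for VEGF-A on endothelial cells. Its probe (A_51_P316553, transcript NM_010612) is printed in 10 spots, which makes it the best replicated of the tested probes within an array. Cy5 minus background had a lowest, median and highest value of 15.5, 48.8 and 68.4 units in NOD, against 14.1, 18.0 and 37.6 units in NOD.B10. Of its spots, 60 of 60 passed in NOD and 59 of 60 in NOD.B10. The SD between the spots of 1 array was 2.44 to 19.1 units in NOD and 3.48 to 6.61 units in NOD.B10, against an SD between mice of 21.6 units in NOD and 9.52 units in NOD.B10. The log2 ratio ran from 0.045 over 0.41 to 1.19 in NOD and from 0.41 over 0.49 to 0.98 in NOD.B10. NOD replicates 5 and 6 and NOD replicate 2 lay below all NOD.B10 mice and NOD replicate 3 above all of them, so the groups overlapped. The change was -0.13 ± 0.20 (SE, adjusted p = 0.631, limma), with a 95% interval of -0.56 to 0.29. Leaving out 1 mouse moved it between -0.046 (without NOD replicate 5) and -0.28 (without NOD replicate 3), and it passed in none of these fits.

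Flt1 encodes VEGFR1, which binds VEGF-A tightly and limits what reaches VEGFR2. Its readable probe (A_51_P398723, NM_010228) gave 9, 18.3 and 24.5 units of Cy5 (lowest, median, highest) in NOD, against 8, 9.5 and 13.5 units in NOD.B10, and passed on 6 NOD and 5 NOD.B10 arrays. As a log2 ratio it ran from -0.15 over 0.12 to 0.47 in NOD and from 0.21 over 0.24 to 0.46 in NOD.B10. The NOD mice spread over and below the whole NOD.B10 range. The change was -0.17 ± 0.11 (SE, adjusted p = 0.261, limma). The second Flt1 probe (A_52_P520859) stayed at -6 to 7 units in Cy5 and adds no islet value.

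Ptprb encodes VE-PTP, a receptor phosphatase that acts on VE-cadherin and on the angiopoietin receptor. Cy5 of its probe (A_51_P215475, NM_029928) was 14, 28.5 and 40.5 units (lowest, median, highest) in NOD, against 5, 7.25 and 15 units in NOD.B10. It passed on 6 NOD and 3 NOD.B10 arrays. Its log2 ratio ran from -0.67 over -0.48 to 0.07 in NOD and from -0.35 over -0.07 to 0.15 in NOD.B10, with NOD replicates 4 and 5 inside the NOD.B10 range and the other 4 NOD mice below it. The change was -0.30 ± 0.15 (SE, adjusted p = 0.130, limma). Without NOD replicate 5 it was -0.38 and passed (adjusted p = 0.0369, limma), so 1 mouse decides this call.

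Vegfa encodes the ligand. Its readable probe (A_52_P638895, NM_009505) had 10, 18.8 and 34.5 units of Cy5 (lowest, median, highest) in NOD, against 2, 8.25 and 10 units in NOD.B10, and passed on 6 NOD and 3 NOD.B10 arrays. The log2 ratio ran from 0.08 over 0.44 to 0.56 in NOD and from -0.04 over 0.22 to 0.33 in NOD.B10. NOD replicates 1, 2, 3 and 5 lay above every NOD.B10 mouse, and replicates 4 and 6 lay among them. The change was 0.20 ± 0.11 (SE, adjusted p = 0.183, limma). The other 2 Vegfa probes did not read islet RNA: the one printed in 10 spots (A_51_P482552) had 0.778 to 4.5 units in Cy5 and passed on 0 of 60 spots in NOD and 0 of 60 in NOD.B10, although it passed in Cy3 on all 12 arrays. The probes of this gene therefore disagree on whether the islet signal is above background.

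Plvap encodes the protein of the diaphragms that span endothelial fenestrae. Its probe (A_51_P414653, NM_032398) gave 176, 260.5 and 487 units of Cy5 (lowest, median, highest) in NOD, against 37, 321.5 and 3437.5 units in NOD.B10. The log2 ratio ran from 2.57 over 3.39 to 4.84 in NOD and from 1.32 over 4.73 to 9.02 in NOD.B10. The highest ratios, 8.36 and 9.02, belonged to the 2 NOD.B10 mice of slide 4, and the lowest, 1.32, to NOD.B10 replicate 4 on slide 2. The change was -1.56 ± 1.12 (SE, adjusted p = 0.299, limma), the widest error of the 5 genes, with a 95% interval of -3.98 to 0.85.

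**Figure D2:**
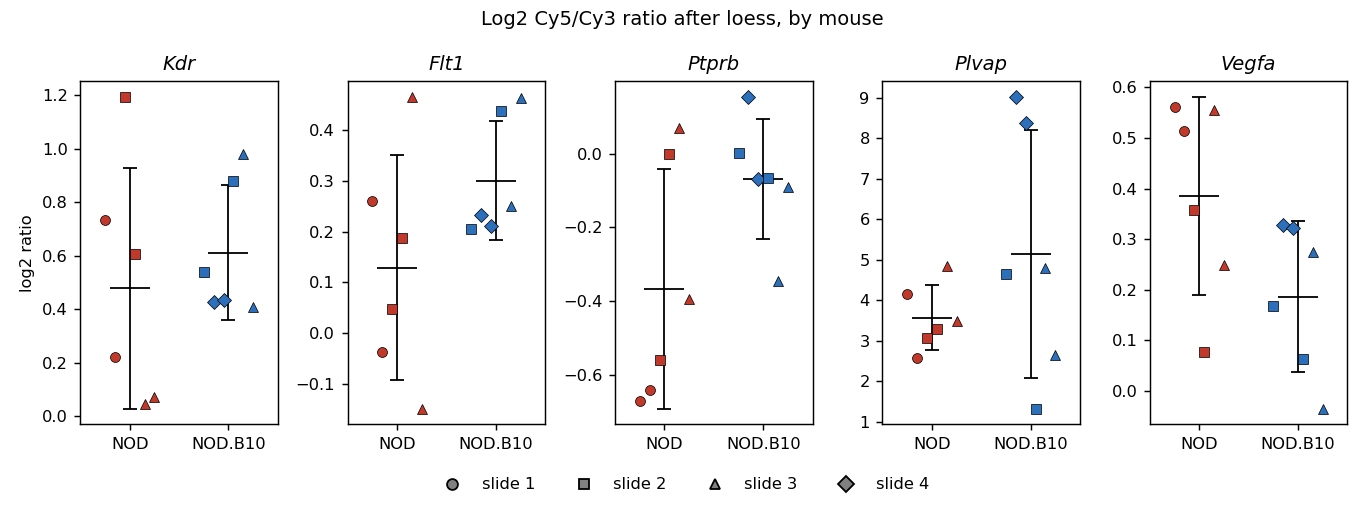
Log2 Cy5/Cy3 ratio after loess of the 5 tested genes in each of the 12 mice, NOD left of NOD.B10, with symbols for the slide and a black bar for the mean ± SD of 6 mice. The scales differ between panels. The groups overlap in all 5, and the NOD.B10 mice of slide 4 (diamonds) stand at 8.36 and 9.02 for Plvap.

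The Plvap value on slide 4 is not particular to the islet channel. Cy3, which carried the same reference RNA on every array, was 5851.5 and 11542 units for this probe on slide 4 and 218.5 to 588 units on the other 10 arrays, a 52.8-fold range after background subtraction. Cy5 was 1902 and 3437.5 units on slide 4 and 37 to 487 units elsewhere. By the SD of log2 Cy3 (normexp) over the 12 arrays Plvap ranked 8 among 3920 genes. In the other 4 tested genes, the background-subtracted Cy3 varied over the 12 arrays by 1.59-fold for Kdr, 1.41-fold for Flt1, 1.67-fold for Ptprb and 1.35-fold for Vegfa. Without slide 4 the Plvap change was 0.21 (adjusted p = 0.841, limma), of the opposite sign. This alternative was chosen after seeing the data. What raised both channels on slide 4 was not tested.

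The genes whose profile over the 12 arrays was closest to that of Plvap showed the same pattern. Likeness was the root mean square difference between centred log2 ratios, and 5 genes came within 0.5 of Plvap, against a median of 2.21 over all genes. They were Col2a1 (0.246), Olfr1134 (0.294), Ranbp17 (0.372), Nrm (0.416) and Mdk (0.436). Col2a1, a cartilage collagen gene, had a Cy3 signal of 5414.5 and 9297 units on slide 4 and 169.5 to 607 units on the other arrays. The olfactory receptor gene Olfr1134 had 5279.5 and 8811.5 units on slide 4 and 54 to 355 units elsewhere. The likeness was not limited to slide 4. On the other arrays Cy5 was 37 to 487 units for Plvap, 39 to 501 for Col2a1 and 26.5 to 319 for Olfr1134. NOD.B10 replicate 4 was lowest for each. Whether the Plvap probe read endothelial RNA was not tested. Over all tested genes, 40 had a Cy3 signal more than 2 log2 units higher on slide 4 than on the rest.

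**Figure D3:**
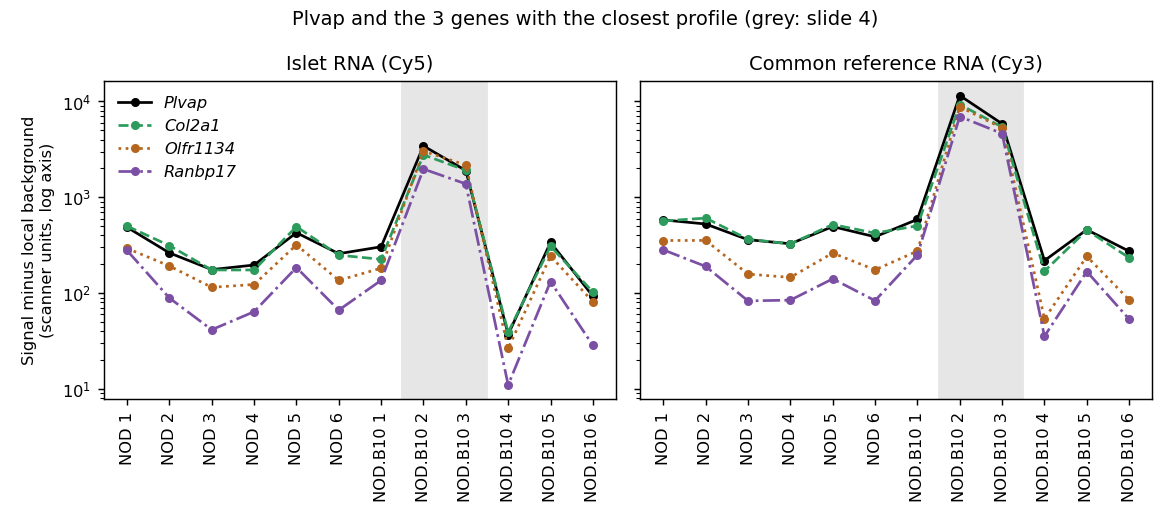
Signal minus local background (scanner units, log axis) of Plvap and of the 3 genes with the closest profile, on each of the 12 arrays, in the islet channel (left) and the common reference channel (right). Both arrays of slide 4 (grey) stand above all others in both channels for all 4 genes.

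Before any scaling within the array, the islet signal of 4 of the 5 genes was higher in NOD. On the log2 scale of background-corrected Cy5 (normexp, offset 50), Kdr was higher by 0.39 (adjusted p = 0.0321), Flt1 by 0.16 (adjusted p = 0.0296), Ptprb by 0.40 (adjusted p = 0.00730) and Vegfa by 0.31 (adjusted p = 0.00979), each by an exact 2-sided permutation test over 924 assignments of the arrays. Plvap differed by -0.51 and did not pass the exact permutation test (adjusted p = 0.574). Of all genes, 84% were called higher on this scale and the median change was 0.42, so the share of members called lay near that of the array as a whole, and each of the 4 changes was below the median. The groups overlapped in all 5 genes, while 47.3% of all genes had every NOD mouse above every NOD.B10 mouse. The Cy3 signal of Kdr was also 0.25 log2 units higher on the NOD arrays, against a median of 0.072 over all genes. Without slide 4, chosen after seeing the data, the unscaled changes of Kdr and Flt1 were 0.33 (adjusted p = 0.116) and 0.14 (adjusted p = 0.0854) in the exact permutation test, and that of Plvap was 0.70 (adjusted p = 0.200).

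**Figure D4:**
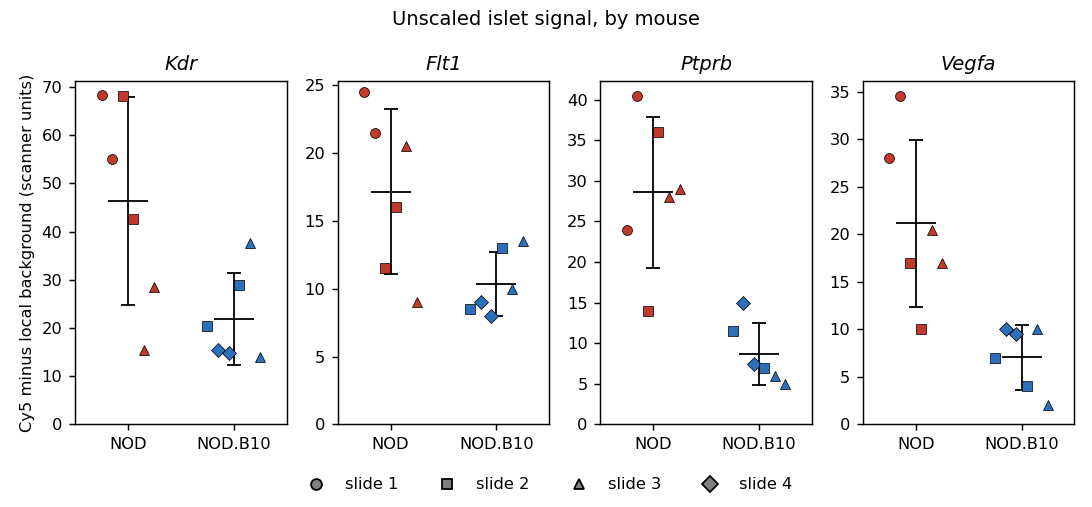
Cy5 signal minus local background, in scanner units, of Kdr, Flt1, Ptprb and Vegfa in each mouse, NOD left of NOD.B10, with symbols for the slide and the mean ± SD of 6 mice in black. The NOD means are 46.4, 17.2, 28.6 and 21.2 units and the NOD.B10 means 21.9, 10.3, 8.67 and 7.08 units, on arrays whose islet channel was brighter in NOD as a whole.

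Slides 2 and 3 give the strain difference within a slide, with 2 mice of either strain on each. For Kdr the change was 0.19 on slide 2 (adjusted p = 0.757, limma) and -0.64 on slide 3 (adjusted p = 0.367, limma). On slide 3 both NOD mice, at 0.045 and 0.07, lay below both NOD.B10 mice, at 0.41 and 0.98, whereas on slide 2 the strains overlapped. Flt1 differed by -0.20 on slide 2 and by -0.20 on slide 3. Ptprb differed by -0.25 on slide 2 and by 0.06 on slide 3, and Plvap by 0.20 and 0.44. Vegfa differed by 0.10 on slide 2 and by 0.28 on slide 3. None of the 5 passed on either slide. Few genes did: of 3920, 38 were called higher and 46 lower on slide 2, and 1 and 1 on slide 3. With 2 mice against 2, not passing therefore says little about a gene. With slide as a fixed term none passed either, and Plvap stood at 0.32 (adjusted p = 0.794, limma). The remaining slides held only NOD or only NOD.B10 arrays, so the strain difference in that fit comes from slides 2 and 3 alone. It is therefore no check apart from these 2 slides, and the same holds wherever the fixed slide term is used below.

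Whether a gene passed depended on the scaling for Kdr, Flt1 and Plvap. Kdr was -0.90 with the scanner's processed ratio (adjusted p = 0.0671, limma), where the median of all genes was 0.48, and 0.20 with median centring in place of loess (adjusted p = 0.258, limma), where that median was 0.44. With the background-subtracted ratio of probes bright in both channels on every array, Kdr was -1.21 and passed (adjusted p = 0.00228, limma), against a median of -0.33. In that setting the sign comes from the centring: the uncentred ratio of Kdr was 0.75 log2 units higher in NOD, and the median ratio of the 1078 bright probes, on which each array was centred, was 1.96 higher in NOD. Flt1 was -0.89 and passed with the scanner's ratio (adjusted p = 0.0444, limma), while median centring gave 0.11. Ptprb and Vegfa passed under none of these scalings, and Ptprb was 0.33 with median centring. Plvap passed as lower with the scanner's ratio (-1.35, adjusted p = 0.0439, limma), with quantile-scaled Cy5 alone (-1.81, adjusted p = 0.0312, limma) and with the ratio of bright probes (-1.12, adjusted p = 0.0484, limma), and as higher with median centring (0.73, adjusted p = 0.0223, limma).

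**Figure D5:**
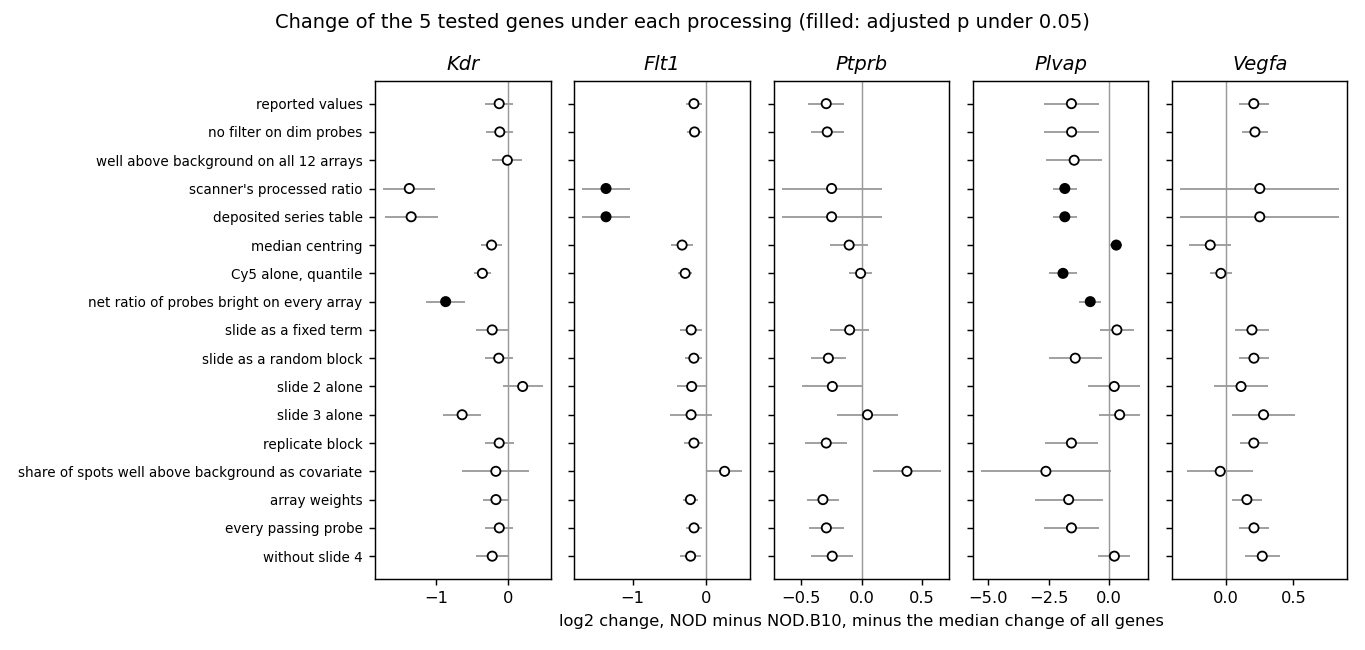
Log2 change (NOD minus NOD.B10) of the 5 tested genes under each processing, less the median change of all genes in that processing, with the SE as a bar and filled points at an adjusted p under 0.05 in limma. Relative to that median Kdr lies at or below 0 except on slide 2 alone, and Plvap lies on both sides. A missing point means that the gene did not meet that setting's condition.

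The mean profile of the 5 tested genes was closest to those of Rusc1 (0.185), Defa3 (0.214), Tspo2 (0.221), Olfr166 (0.233) and Ankrd9 (0.240) by the same root mean square difference over 12 arrays. Without Plvap, the closest were Zdhhc6 (0.082), Ikbip (0.092), Ccdc181 (0.101), Maip1 (0.102) and Stx18 (0.106). For Flt1 alone, 2902 of the other genes lay within 0.5, so a close profile among these small ratios is common.

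Other endothelial genes were described from a list of 44, of which 18 could be tested. Of these, 7 were called higher and 2 lower, with a median change of 0.18 over the 18, against 18.8% of all genes higher and 18.1% lower. Of the 18, 8 were read on no NOD.B10 array and could enter only through NOD, and 17 of the 44 were well above background in Cy5 on no array. Igfbp7, which encodes a matrix protein of vessel walls, had a median Cy5 of 956 units in NOD and 154.25 units in NOD.B10. Its log2 ratio was 0.99 higher in NOD (adjusted p = 0.000692, limma), but -0.03 with the scanner's ratio. No NOD.B10 array read 5 of the 7 higher genes. For their folds in normalised Cy5, a NOD.B10 value under the 10th percentile of the readable signals on its array was replaced by that percentile. The folds are lower bounds of 1.23-fold for Ets1, 1.08-fold for S1pr1 and 1.00-fold for Ly6a. For Fli1 (3.27-fold) and Klf2 (2.76-fold) no value lay under that percentile, so none was replaced. Their folds are differences of normalised Cy5 against signals that were not read, and no detection floor bounds them. Fli1 and Ets1 encode transcription factors, Klf2 a factor induced by blood flow, S1pr1 a sphingosine phosphate receptor and Ly6a the surface protein Sca-1, and all 5 are also expressed by leukocytes. The caveolar gene Cav1 was -0.54 and the water channel gene Aqp1 -0.38 (adjusted p = 0.0203 and 0.0278, limma), both positive with median centring, at 0.89 and 0.54. The unscaled islet signal of neither was lower in NOD. Median Cy5 was 82.25 units in NOD and 21.25 units in NOD.B10 for Cav1, and 22.25 and 12 units for Aqp1. The seventh higher gene was Mmrn2, which encodes an endothelial matrix protein (0.29, adjusted p = 0.0321, limma). With slide as a fixed term Ets1, S1pr1, Aqp1 and Mmrn2 no longer passed (adjusted p = 0.0660, 0.0912, 0.102 and 0.215, limma). With the share of spots above background as a covariate none of the 9 passed, and that share differs between the strains without overlap. Ets1, S1pr1, Mmrn2, Cav1 and Aqp1 were named after their values were seen.

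Leukocyte genes were compared between the strains in the same way. Of 14 listed, 12 were tested and 12 were called higher in NOD, but 9 of these were read on no NOD.B10 array and entered the test through the NOD arrays, so the count was largely set by the condition for a test. Lyz2, Srgn and Ctss, named after their values were seen, were read in both strains and called higher. The summed Cy5 of 5 leukocyte markers was 1020 to 7224 units in NOD and 36.1 to 59.5 units in NOD.B10, where 4 of the 5, Ptprc, Cd3d, Ms4a1 and Cd74, were well above background on no array. Ptprc, which encodes the pan-leukocyte antigen CD45, was 10.3-fold higher in normalised Cy5. No NOD.B10 value was replaced for it, so no detection floor bounds this fold. The part of these cells in the higher endothelial genes was not tested.

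Among 20 genes of leukocyte adhesion and high endothelial venules, 7 were tested, 3 were called higher and 2 lower, and the median change was 0.28, against the same 18.8% and 18.1% of all genes. Of the 7, 5 were read on no NOD.B10 array and could enter only through NOD. The 3 higher genes are among them, so the count of higher genes was largely set by the condition for a test. Ccl19, a chemokine that draws lymphocytes, had 67 to 569.5 units of Cy5 in NOD and 0.5 to 7 units in NOD.B10, and was at least 5.46-fold higher (adjusted p = 4.0e-05, limma). Vcam1, the endothelial ligand for lymphocyte integrins, had 34.5 to 449 units in NOD and -1.5 to 8 units in NOD.B10, and was called higher (adjusted p = 0.00245, limma). Its 3.44-fold difference in normalised Cy5 had no NOD.B10 value replaced, so no detection floor bounds it. Glycam1, a mucin of high endothelial venules that L-selectin binds, was read on 5 NOD arrays and on no NOD.B10 array, and was at least 1.34-fold higher (adjusted p = 0.00672, limma). With the fixed slide term Glycam1 did not pass (adjusted p = 0.0907, limma). Cxcl12, a chemokine for leukocytes and progenitors, had 11.5 to 24 units of Cy5 in NOD and -2 to 10 units in NOD.B10, and was read on 6 NOD arrays and on 1 NOD.B10 array. Its ratio was called lower in NOD (adjusted p = 0.00471, limma) although its islet signal was not lower there, so it gets no fold, and the ratio was higher in NOD with median centring (adjusted p = 0.0357, limma). The fifth called gene, Cx3cl1, named after its values were seen, was read on none of the NOD.B10 arrays and gets no fold.

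None of the 5 tested genes of VEGF, angiopoietin and Notch signalling, from 26 listed, was called by limma, and 1 had an unadjusted p under 0.05. Esm1, an endothelial gene that VEGF induces, had a median Cy5 of 82 units in NOD (23 to 170) and 73.5 units in NOD.B10 (33 to 145). The unscaled median was therefore not lower in NOD. Esm1 had a ratio change of -0.89 ± 0.40 (SE, adjusted p = 0.0960, limma). It passed as lower with the scanner's ratio or the series table (-2.04, adjusted p = 0.00237, limma), with Cy5 alone (-1.06, adjusted p = 0.00182, limma), with the ratio of bright probes (-2.03, adjusted p = 0.00046, limma) and without NOD replicate 3 (-1.18, adjusted p = 0.0153, limma), and was 0.062 with median centring. Gja4, which encodes the arterial gap junction protein connexin 37, was -1.35 ± 0.92 (SE, adjusted p = 0.273, limma), and its background-subtracted Cy3 signal ranged 28.6-fold with slide 4 highest, as for Plvap. Of 7 lymphatic endothelial genes, Lyve1, a hyaluronan receptor, was the only one tested, at 0.09 ± 0.13 (SE, adjusted p = 0.622, limma). It was read on 5 NOD arrays and on no NOD.B10 array, and was called higher with the scanner's ratio or the series table (adjusted p = 0.0203, limma) and with median centring (adjusted p = 0.0274, limma).

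Genes of pericytes, the cells that wrap capillaries, and genes induced by low oxygen, which also raises Vegfa transcription, were counted in the same way. Of 19 pericyte and smooth muscle genes, 10 were tested and 3 were called, against 36.9% of all genes. Of these, 1 was higher (Dcn, 1.26, a matrix proteoglycan of fibroblasts, adjusted p = 0.0739 with the fixed slide term in limma) and 2 were lower (Col1a1, -0.85, and Anpep, -0.34, both positive with median centring at 1.02 and 0.50). The unscaled islet signal of Col1a1 and Anpep was not lower in NOD. Median Cy5 was 97.4 units in NOD and 25.75 units in NOD.B10 for Col1a1, and 47.5 and 13 units for Anpep. Anpep, Cx3cl1 and Ins1 did not pass with the fixed slide term (adjusted p = 0.239, 0.353 and 0.121, limma). Of 6 pericyte and smooth muscle markers, Rgs5, Cspg4, Des and Myh11 were read on no array. Pdgfrb, read on no NOD.B10 array, and Acta2, read in both strains, were not called. The 3 called genes are not among these markers. Of 24 genes that hypoxia induces, 8 were tested and 2 were higher, which is near the 18.8% of all genes. They were Ddit4, an inhibitor of mTORC1, by 1.08 (adjusted p = 0.000228, limma), and Ldha, the enzyme that makes lactate, by 0.91 (adjusted p = 0.000667, limma).

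As a check of the tissue, all 6 islet hormone markers were read in both strains, with a summed Cy5 of 29668 to 55236 units in NOD and 22852 to 54027 units in NOD.B10. Ppy was read on only 1 NOD array and 3 NOD.B10 arrays. Among the 8 endothelial markers, Kdr, Flt1, Plvap and Emcn were read in both strains, whereas Pecam1, Cdh5, Tek and Tie1 were read nowhere. The Plvap signal ran close to that of the cartilage gene Col2a1 over the arrays, and whether it came from endothelial RNA was not tested. Emcn was read on only 2 NOD arrays and 1 NOD.B10 array, too few for a test. The label of islet tissue therefore fits the hormone markers, while the endothelial part of the samples rests on few readable genes. Of the endocrine genes 13 were tested and 6 were called lower, among them Ins2 (-3.35), Ins1 (-1.75) and Gcg (-1.19), the last 2 positive with median centring (0.17 and 1.21), under which Ins2 was -0.054 and did not pass (adjusted p = 0.868, limma). The median unscaled Cy5 of Gcg was 26896 units in NOD and 10304 units in NOD.B10. It was 12062 against 13478 units for Ins2 and 1160.8 against 1596.5 units for Ins1. Of the acinar genes, markers of the surrounding exocrine tissue, 9 were tested and 6 were called lower. The unscaled signal of the acinar markers was not lower in NOD. Summed over 4 of them, median Cy5 was 488 units in NOD (129.5 to 2287) and 407.5 units in NOD.B10 (99 to 4915.5). Over all genes 18.1% were called lower.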

How the data were processed

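Scanner intensity values (median signal and local background of either channel) were deposited per array, not normalised (per the file headers, the authors used Feature Extraction 10.5.1.1). The files also hold a log10 ratio of processed signals, and the deposited series table holds the same ratio as log2, equal for 100% of the values compared (tolerance 0.001). Background was corrected by normexp with an offset of 50, then each array was normalised by loess (limma 3.58.1, R 4.3.3), and spots of a probe were averaged. Mean signals had been planned, and median signals were used because the files give these. Accessions were matched to mouse annotation GRCm38.p6, which named 24375 of 41174 probes. Coordinates on the arrays were not used. The 5347 probes with Cy5 well above background on at least 4 of 12 arrays gave 3920 genes, each by its probe with the highest mean Cy5. Strains were compared with lmFit and eBayes. On simulated data of that size the fit recovered 86% of changes of 1 log2 unit and 97% of 2, with 8 false calls. Recovery at the low signals of Kdr, Flt1, Ptprb and Vegfa, or at the wide spread of Plvap, was not tested. These shares therefore do not apply to those genes. Arrays give no counts, and their number limits the precision.

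Named were all members, in each list up to 4 called genes by smallest p (2 where none was called), the 5 nearest profiles, and Ins1, Ins2, Gcg and Ptprc. Of the endocrine, acinar and leukocyte lists otherwise only counts, marker detection and summed marker signals are given. The members and lists were chosen with earlier results of these data known. The floor for lower bounds was also chosen after the values were seen. Replicate numbers do not pair the mice: deviations of same-numbered mice correlated at -0.147 to 0.212.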

Additional observations from a re-analysis of the deposited data

Results flagged for a closer look

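Within each strain, the signals of the 5 tested endothelial genes were searched for a mouse standing apart from the other 5 by Dixon's criterion for 6 samples. Of 30 groups examined, 2 passed, and chance gives about 1 in 20. Both were low values in the reference channel and not in the islet channel. Flt1 had an unscaled log2 Cy3 signal of 8.702 on the array of NOD replicate 2, with the next lowest NOD array at 8.976. Kdr, Ptprb and Vegfa also had their lowest NOD Cy3 signal on that array, short of the criterion. It had the lowest share of Cy3 spots passing, 46.7%. Ptprb had 10.293 on the array of NOD.B10 replicate 4, with the next lowest NOD.B10 array at 10.7. Flt1 and Vegfa also had their lowest NOD.B10 Cy3 signal there, short of the criterion. The 30 groups share arrays and are therefore not independent.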

How the results depend on the processing

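The 5 tested genes passed in no direction in the fit reported. Leaving out 1 mouse gave 0 to 1 members called lower, 602 to 851 genes higher and 577 to 808 lower. Against 736 genes higher and 709 lower, the fixed slide term gave 361 and 354, slide 2 alone 38 and 46, slide 3 alone 1 and 1, the share of spots above background as a covariate 3 and 0, probes read on all 12 arrays 162 and 180, the ratio of bright probes 131 and 289 (2 members lower), and median centring 1980 and 0 (1 member higher). Genes called lower numbered 1392 with no filter, 313 with the scanner's ratio or the series table (2 members lower in each) and 265 with Cy5 alone (1 member lower). The replicate block gave 638 higher and 597 lower and called no member. With no filter on dim probes, none of the 10 members passed.

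Signs turned in these cases (log2 change). With the scanner's ratio and the series table these were Ptprb 0.23, Cxcl12 0.32, Cx3cl1 0.85, Anpep 0.24 and Igfbp7 -0.026. With median centring they were Kdr 0.20, Flt1 0.11, Ptprb 0.33, Plvap 0.73, Esm1 0.062, Gja4 0.48, Cav1 0.89, Aqp1 0.54, Cxcl12 0.39, Cx3cl1 0.22, Col1a1 1.02, Anpep 0.50, Ins1 0.17 and Gcg 1.21, where the median of all genes was 0.44. With Cy5 alone they were Ptprb 0.084, Cxcl12 0.18, Cx3cl1 0.11, Col1a1 0.055, Anpep 0.073 and Gcg 0.71. With the covariate they were Flt1 0.22, Ptprb 0.35, Vegfa -0.072, Ets1 -0.0064, Aqp1 0.024, Cxcl12 0.36, Cx3cl1 0.21, Vcam1 -0.44, Glycam1 -0.13, Anpep 0.054 and Gcg 0.60. The fixed slide term gave Plvap 0.32 and Gja4 0.090, slide 2 alone Kdr 0.19 and Plvap 0.20, and slide 3 alone Ptprb 0.055, Plvap 0.44 and Gja4 0.57. Without slide 4, added after seeing the data, Plvap was 0.21 and Lyve1 -0.0065, and the unscaled Cy5 change of Plvap was 0.70. The unscaled changes of Kdr (0.33) and Flt1 (0.14) kept their sign there but no longer passed the exact permutation test. Values of Cx3cl1, Cxcl12 and Lyve1 are fitted ratios against NOD.B10 arrays, of which at most 1 read them, and are not folds. The cause was not tested. Signals of 2 to 68.4 units over background limit Kdr, Flt1, Ptprb and Vegfa, and an offset of 50 shrinks such ratios.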
